A study of Homo sapiens with 6 samples.

Results

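The cytosolic ribosomal protein genes were followed in HCT116, a human colon carcinoma cell line, with and without a *ZKSCAN3* knockout. They were taken from the deposited gene table by symbol: protein-coding genes named RPL or RPS with a number, with *RPLP0*, *RPLP1*, *RPLP2* and *RPSA*, and without *RPS27L*, the *RPS6K* kinases and the *RPS4Y* genes. The rule found 88 of 46427 genes. Of these, 46 encode proteins of the large subunit and 31 proteins of the small subunit, here called the 77 subunit genes. The other members are 7 paralogues (*RPL3L*, *RPL7L1*, *RPL10L*, *RPL22L1*, *RPL26L1*, *RPL36AL* and *RPL39L*), 3 readthrough loci that join a ribosomal protein gene to its neighbour, and *RPS19BP1*, whose product is not a ribosomal protein. *FAU* and *RACK1*, which encode ribosomal proteins under other symbols, fall outside the rule and are given beside the members.

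RNA of parental HCT116 cells (*ZK3*-WT) and of *ZK3*-KO cells, in which CRISPR/Cas9 removed the *ZKSCAN3* start codon from the first exon, was sequenced as 3 libraries each from cells grown in serum-containing medium. The *ZK3*-KO cells were grown out from single-cell selection and carry the mutation on both alleles, so the genotype cannot be told apart from other properties of that line. The libraries are called biological triplicates, but the sources used here do not say what a replicate number marks, and p-values measure the spread between these libraries.

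The counts summed to between 60827060 and 68635701 reads per *ZK3*-WT library and to between 63581292 and 69739215 per *ZK3*-KO library. Normalized counts are given as CPM, reads scaled to a common library size with TMM factors. *ZKSCAN3* was at 28.1, 23.4 and 19.8 CPM in *ZK3*-WT and at 25.4, 24.9 and 13.6 CPM in *ZK3*-KO, and the groups overlapped. Loss of a start codon need not change the count of a whole gene, so this count does not check the label. Of 7 epithelial marker genes, 6 were expressed and *VIL1* was at or near 0. Of 8 markers of other cell types, *PTPRC* and *CD3E* had 0 reads in every library and *DCN* had 2 reads in 1 library. *COL1A2*, *PECAM1* and *CDH5* had at most 10 reads in any library. *ALB* lay between 0.16 and 0.95 CPM, and *COL1A1* between 32.2 and 98.8 CPM. *ZK3*-KO replicate 3 stood apart from the other *ZK3*-KO libraries, with a correlation of log2 CPM of 0.963 and 0.950 with replicates 1 and 2, which correlated at 0.985 with each other. Fold changes and counts of calls that it moves are given with and without it.

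Every ribosome holds 1 copy of nearly every ribosomal protein, so the genes are known for being expressed together and at high levels in growing cells. The small subunit reads the mRNA, and the large subunit joins the amino acids. Their mRNAs typically begin with a terminal oligopyrimidine (TOP) tract, a C followed by a run of C and T, through which growth signalling by mTOR and the protein LARP1 controls their translation and stability.

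The start sites of the members were read from RefSeq on GRCh38.p14, which held a promoter for 69 of the 88 members and 62 of the 77 subunit genes. Of the 62, 46 (74.2%) had a C at the first base followed by at least 4 C or T, against 822 of 12457 (6.60%) of the other tested genes. Start windows of 15 bases before and 15 bases after the start are shown for members to which the results return, with the run of C and T through the first base in capitals. The first base is the 16th letter of each line.

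RPS6: aagcggaagttggCCCTCTTTTCCgtggcg
RPLP0: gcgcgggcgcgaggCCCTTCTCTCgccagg
RPL7A: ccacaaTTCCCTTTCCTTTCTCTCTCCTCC
RPL22: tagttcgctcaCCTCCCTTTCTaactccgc
RPL22L1: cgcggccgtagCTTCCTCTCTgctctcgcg
RPL36A: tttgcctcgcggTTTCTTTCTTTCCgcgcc
RPL36AL: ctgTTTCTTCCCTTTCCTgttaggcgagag
RPS29: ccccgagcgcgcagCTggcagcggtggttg
RPL7L1: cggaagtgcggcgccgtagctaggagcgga

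These windows lie at chr9:19380222-19380251 (*RPS6*, minus strand), chr12:120201097-120201126 (*RPLP0*, minus), chr9:133348203-133348232 (*RPL7A*, plus), chr1:6199581-6199610 (*RPL22*, minus), chr3:170870181-170870210 (*RPL22L1*, minus), chrX:101390996-101391025 (*RPL36A*, plus), chr14:49620612-49620641 (*RPL36AL*, minus), chr14:49598696-49598725 (*RPS29*, minus) and chr6:42879601-42879630 (*RPL7L1*, plus). The runs of *RPS6* and *RPLP0* had 11 and 10 bases, and that of *RPL7A* filled its window to the edge. *RPL22L1* shared such a start with *RPL22*, whereas *RPL7L1* had no pyrimidine at its first base. The run of *RPL36AL* ended 3 bases into the transcript, so the gene had no pyrimidine start by this measure, and its relative *RPL36A* did. The run of *RPL36AL* had 15 bases, of which 12 lay before the annotated start. The first base was taken from the annotation and was not measured in these libraries. A gene without a pyrimidine start by this measure can therefore still carry such a tract. In the whole promoter entries, which all have the same length and run from upstream of the start into the transcript, the ETS core CCGGAAG, searched on both strands, was found for 22 of the 62 subunit genes (35.5%) and for 20% of the other tested genes. The YY1 core AAGATGGC was found for 6 (9.68%) against 5.72%, and TATAAA for 5 (8.07%) against 9.01%. No overlap between these motifs was removed.

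Ribosomal protein mRNAs were among the most abundant in the parental cells. On the deposited TPM scale, which is per transcript length, 25 members were among the 50 most abundant genes, 52 among the top 100 and 66 among the top 200. The median mean TPM over *ZK3*-WT was 1540 in the large subunit and 1716 in the small subunit, against 10.1 over all 18366 tested genes. Although subunits are assembled in equal numbers, the levels of their genes ran from 155 to 5788 TPM, and the quartiles of the 77 subunit genes were 799 and 2278 TPM.

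The highest gene was *RPS2*, which lies at the entry of the mRNA channel, with 5788 ± 322 TPM (SD, n = 3). *RPS18* followed with 5372 ± 242 and *RPLP0*, the scaffold of the stalk, with 4993 ± 222 TPM. *RPS2* lay between 5510 and 6140 TPM in *ZK3*-WT and *RPS18* between 5166 and 5638, so these neighbours in the order overlapped. *RPL8* (3926 ± 211), *RPL12* (3843 ± 92.6) and *RPL3* (3791 ± 49.5) came next, with overlapping ranges. *RPS12*, at 2900 ± 133 TPM, was the next gene of the small subunit. The lowest gene was *RPL14* with 155 ± 8.30 TPM, below *RPS28* (219 ± 21.8), *RPL37* (261 ± 24.7) and *RPL28* (269 ± 11.0). In the small subunit *RPS26* (354 ± 29.4) and *RPS23* (410 ± 27.7) were the next above *RPS28*. The order moved with annotated length: of the 10 lowest genes 8 had a canonical transcript longer than 2000 bases, and of the 10 highest 0 did. The part of the annotation in this order was not tested.

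**Figure D1:**
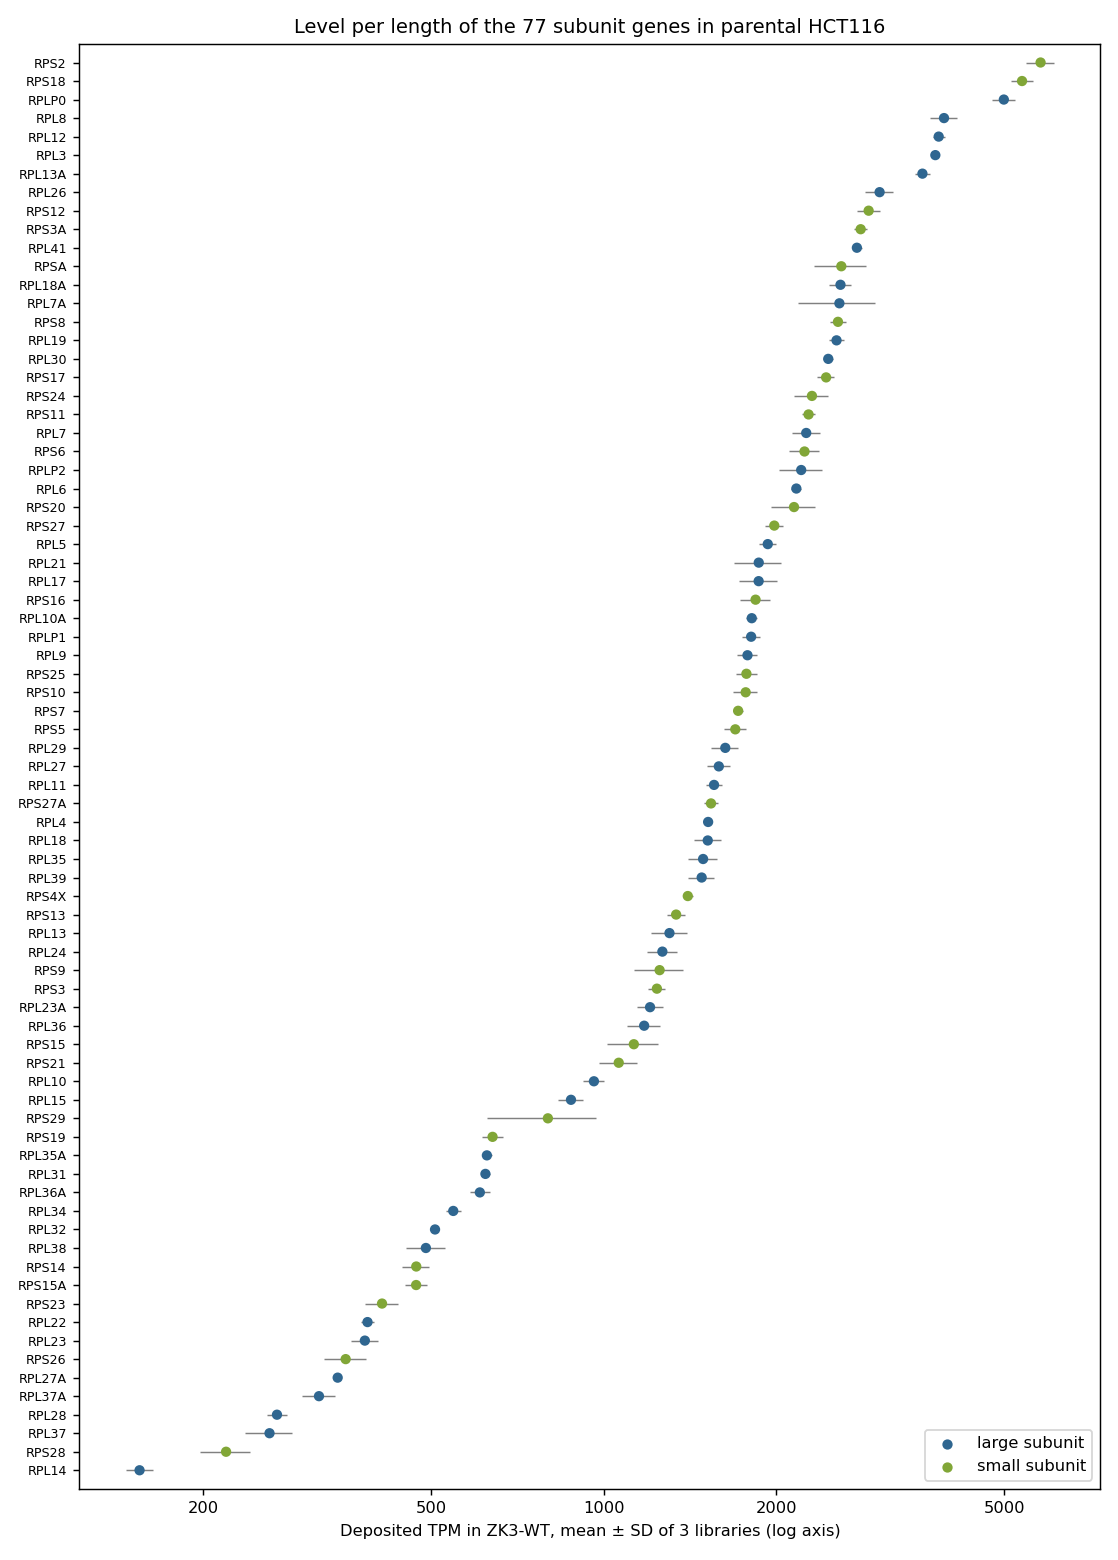
Deposited TPM of the 77 subunit genes in *ZK3*-WT, as the mean (point) and SD (bar) of 3 libraries on a log axis, with the large subunit in blue and the small subunit in green. The genes span 155 to 5788 TPM, with *RPL14* lowest and *RPS2* highest, and both subunits are found throughout the range.

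The ribosomal protein genes as a group took 6.27%, 5.78% and 6.09% of all counted reads in *ZK3*-WT replicates 1, 2 and 3. They took 5.93%, 5.43% and 8.25% in *ZK3*-KO replicates 1, 2 and 3. Replicates 1 and 2 of *ZK3*-KO thus lay within or just below the range of the parental cells, and replicate 3 lay above every other library. The means were 6.05% ± 0.248 (SD, n = 3) and 6.54% ± 1.5 (SD, n = 3), a difference smaller than the spread of the *ZK3*-KO libraries, and the *ZK3*-KO mean without replicate 3 was 5.68%. On the TPM scale the group held 13.7%, 13.0% and 13.5% in *ZK3*-WT and 13.3%, 12.3% and 16.6% in *ZK3*-KO. In bulk RNA these shares cannot tell fewer cells of a kind from less RNA per cell, and an absolute amount per cell was not measured.

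The balance between the subunits hardly varied. Reads on large-subunit genes were between 1.67 and 1.70 times those on small-subunit genes in all 6 libraries, with a mean of 1.67 ± 0.0107 in *ZK3*-WT and 1.69 ± 0.00439 in *ZK3*-KO. The small difference was without overlap, with 1.666 to 1.686 in *ZK3*-WT and 1.691 to 1.699 in *ZK3*-KO. On the TPM scale the groups overlapped, with ratios of 1.351 to 1.368 and 1.365 to 1.389. The narrow range of the read ratio included *ZK3*-KO replicate 3. There the large subunit took 5.14% of reads and the small subunit 3.04%, against 3.37% to 3.89% and 1.99% to 2.33% in the other libraries.

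Within each library the subunit genes were shifted together. Relative to its own mean log2 CPM in *ZK3*-WT, the median large-subunit gene lay at 0.05, -0.07 and 0.03 in the *ZK3*-WT libraries, at 0.01 and -0.10 in *ZK3*-KO replicates 1 and 2, and at 0.68 in replicate 3. The median small-subunit gene lay at 0.06, -0.10 and 0.04 in *ZK3*-WT, close to 0 and at -0.12 in *ZK3*-KO replicates 1 and 2, and at 0.66 in replicate 3. The median of all tested genes stayed between -0.03 and 0.01. The interquartile range of the members was 0.07 to 0.11 in *ZK3*-WT and 0.21 to 0.26 in *ZK3*-KO, narrower than the 0.25 to 0.32 and 0.62 to 0.90 of all tested genes.

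*ZK3*-KO replicate 3 held the highest value of the 6 libraries for all 77 subunit genes and for 82 of the 86 tested members, against 28.8% of all tested genes. The 4 exceptions were *RPL3L*, *RPL7L1*, *RPL26L1* and *RPS10-NUDT3*. Outside the members, replicate 3 was highest for 613 of 1283 protein-coding genes with a length between the quartiles of the subunit genes. It was also highest for 24 of 45 other genes with at least 200 CPM in *ZK3*-WT and a transcript of at most 1330 bases. The median member was 1.61-fold higher in replicate 3 than the mean of replicates 1 and 2, and the median was 1.60-fold for the large and 1.71-fold for the small subunit. *RPL13* had the widest gap, with 1380 and 1305 CPM in replicates 1 and 2 and 2817 CPM in replicate 3. *RPL7A*, a large-subunit protein whose gene hosts small nucleolar RNAs, had the narrowest gap among subunit genes, with 1314 and 1313 CPM against 1445 CPM, a ratio of 1.10. The median ratio was 1.73 over the 46 genes with a pyrimidine start at the annotated first base and 1.60 over the 16 without one. The ranges overlapped (1.10 to 2.10 and 1.29 to 1.96). The order was the other way for the median log2 fold change of *ZK3*-KO against *ZK3*-WT in the edgeR fit, with 0.23 and 0.28. The TMM factor of *ZK3*-KO replicate 3 was 0.910, against 0.994 to 1.03 in the others. The 13 protein-coding mitochondrial genes took 11.1% of its reads, against 8.79% to 10.3%. The share of reads, given above, uses no TMM factor. The part of the mitochondrial share in the shift was not tested.

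**Figure D2:**
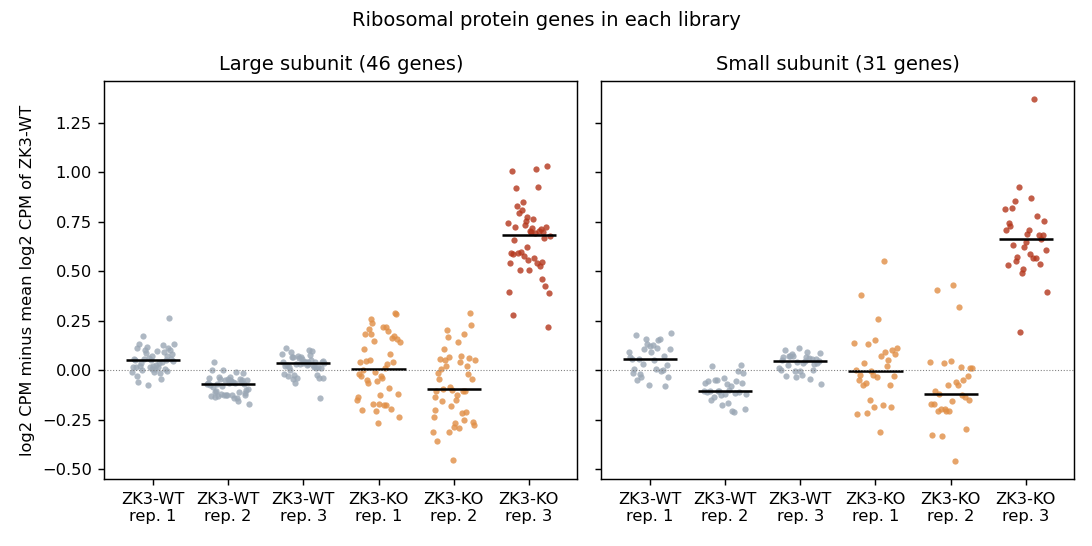
Each point is 1 subunit gene in 1 library, as log2 CPM minus its mean log2 CPM over the 3 *ZK3*-WT libraries, with 46 large-subunit genes (left) and 31 small-subunit genes (right). Black lines are medians, which lie between -0.12 and 0.06 in 5 libraries and at 0.68 (large) and 0.66 (small) in *ZK3*-KO replicate 3.

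The comparison of *ZK3*-KO with *ZK3*-WT asked which genes differ when ZKSCAN3 is lost. It was made with edgeR's quasi-likelihood test on all 18366 genes that passed a filter on low counts. At a false discovery rate (FDR) of 0.05, 1 of the 86 tested members was called higher in *ZK3*-KO, against 0.817% of all tested genes, and 0 were called lower, against 1.23%. The member was the paralogue *RPL36AL*, and 0 of the 77 subunit genes were called in either direction. DESeq2 and limma also called 1 member higher and 0 lower, and 6 members had an unadjusted p below 0.05 in the edgeR test, 8 in DESeq2 and 4 in limma. The fitted log2 fold change was above 0 for 82 members and below 0 for 4, with a median of 0.24 against 0.02 over all tested genes. The median was 0.25 in the large and 0.23 in the small subunit. When replicate 3 of *ZK3*-KO was left out, the median was -0.04 (-0.02 over all genes), with 39 members above 0 and 47 below. In that fit 1 member was called higher, again *RPL36AL*, and 0 lower, while 7.41% and 7.73% of 18872 tested genes were called higher and lower.

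The groups did not overlap, with every *ZK3*-KO library above every *ZK3*-WT library, for 13 members, where 12.7% of all tested genes did so. They were *RPL7A*, *RPL8*, *RPL23A*, *RPL24*, *RPL27*, *RPL35*, *RPL38*, *RPS15*, *RPS26*, *RPS29*, *RPL7L1*, *RPL26L1* and *RPL36AL*. Every *ZK3*-KO library was below every *ZK3*-WT library for 0 members, against 13.8% of all tested genes. With replicates 1 and 2 of *ZK3*-KO alone, 14 members lay above all *ZK3*-WT libraries (24.5% of all tested genes) and 22 lay below (26.0%). The 22 were 13 large-subunit genes, 8 small-subunit genes and *RPL22L1*.

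**Figure D3:**
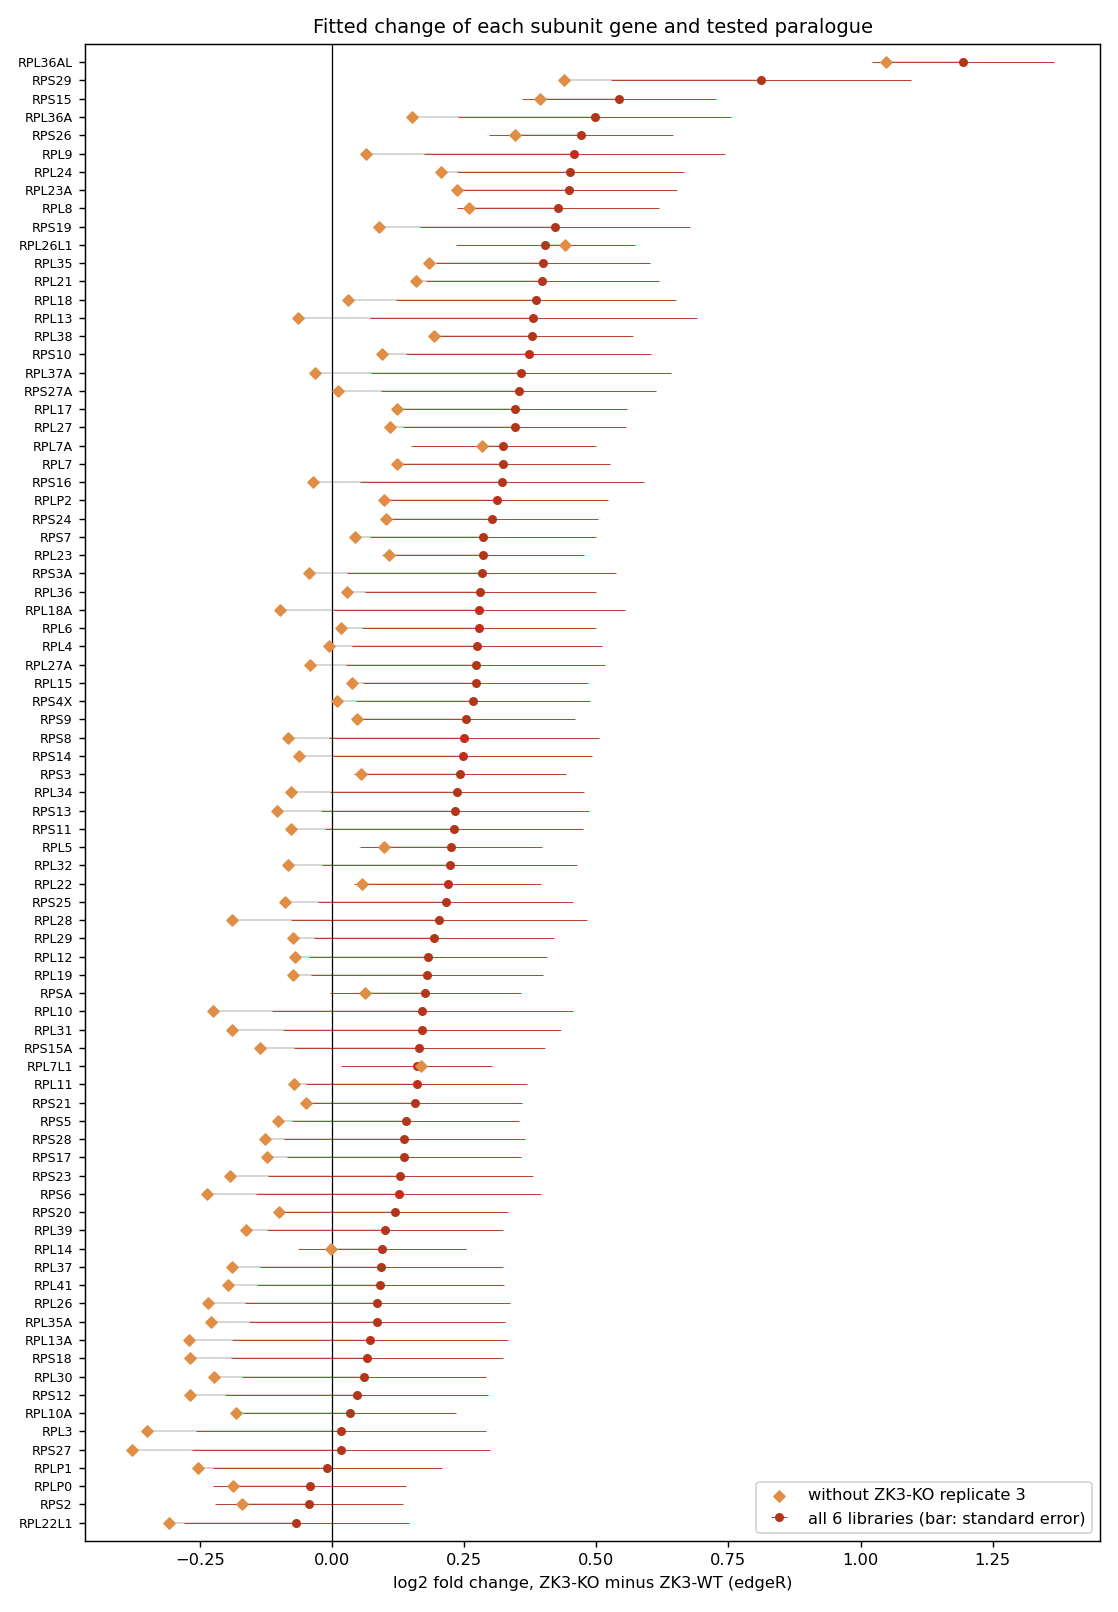
Fitted log2 fold change (*ZK3*-KO minus *ZK3*-WT, edgeR) of the 77 subunit genes and 4 of the 5 tested paralogues, with all 6 libraries (circles, bars are standard errors) and without *ZK3*-KO replicate 3 (diamonds). *RPL3L*, at under 1 CPM, is not drawn; *RPL36AL* stands highest in both fits at 1.19 and 1.05.

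*RPL36AL* encodes a protein nearly identical to the large-subunit protein of *RPL36A* and lies on chromosome 14 (chr14:50085248-50087344, minus strand, GRCh37). Its level was 63.4, 54.6 and 59.2 CPM in *ZK3*-WT and 115.1, 128.0 and 162.4 CPM in *ZK3*-KO. All *ZK3*-KO libraries were above all *ZK3*-WT libraries, and replicates 1 and 2 alone were well above them. The log2 fold change was 1.19 (SE 0.17, edgeR FDR = 0.0219), and 1.05 (SE 0.13, FDR = 0.00223) without *ZK3*-KO replicate 3. The call was lost when any one of the other 5 libraries was left out, with FDR values of 0.0527 to 0.153 and log2 fold changes of 1.14 to 1.30.

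*RPL36A* itself, on the X chromosome, was at 216.6, 209.3 and 231.2 CPM in *ZK3*-WT and at 254.7, 230.2 and 442.6 CPM in *ZK3*-KO. Its replicates 1 and 2 lay near the parental level, and the log2 fold change of 0.50 (SE 0.26, FDR = 0.358) became 0.15 without replicate 3. *RPL36AL* made up 24.8%, 22.7% and 22.4% of the summed TPM of the pair in *ZK3*-WT and 33.7%, 38.5% and 29.2% in *ZK3*-KO, without overlap. The coding sequences are closely related, and how reads that match both were assigned is not given in the sources used here.

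Chromosome 14 holds 2 further members. *RPS29*, a zinc-binding protein of the small subunit (chr14:50037702-50065882, minus strand), was at 208.5, 162.1 and 195.9 CPM in *ZK3*-WT and at 275.4, 234.3 and 484.8 CPM in *ZK3*-KO. The groups did not overlap, but the call was not made (log2 fold change 0.81, SE 0.28, FDR = 0.198, and 0.44, SE 0.15, FDR = 0.0745 without replicate 3). *RPS29* had the highest fitted fold change of the subunit genes. *RPL10L* had 0 reads in every library, which allows up to 0.0430 to 0.0493 CPM. The 503 other tested genes of chromosome 14 had a fitted median of 0.51 on the log2 scale, and their median stood at 0.48, 0.48 and 0.39 above the *ZK3*-WT mean in *ZK3*-KO replicates 1, 2 and 3. Of these, 52 were called higher and 3 lower, against 0.817% and 1.23% of all tested genes. The part of the chromosome in the values of *RPL36AL* and *RPS29* was not tested. The 84 tested members on other chromosomes had a median of 0.23 (-0.04 without replicate 3), and 0 of them were called.

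After *RPS29*, *RPS15*, a protein at the decoding site, had the highest fold change of the small subunit. It was at 304.6, 242.3 and 264.0 CPM in *ZK3*-WT and at 350.5, 356.3 and 474.8 CPM in *ZK3*-KO (0.54, SE 0.18, FDR = 0.187). *RPS26*, which contacts the mRNA at the exit channel, was at 208.6, 170.1 and 196.0 CPM and at 228.1, 257.0 and 311.7 CPM (0.47, SE 0.17, FDR = 0.215). For both genes all *ZK3*-KO libraries were above all *ZK3*-WT libraries, with values of 0.39 and 0.35 when replicate 3 was left out. *RPS19* (0.42, SE 0.26) and *RPS10* (0.37, SE 0.23) came next, and their values were 0.09 and 0.09 without that library.

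In the large subunit *RPL36A* was followed by *RPL9* (0.46, SE 0.29), *RPL24* (0.45, SE 0.21), *RPL23A* (0.45, SE 0.20) and *RPL8* (0.43, SE 0.19), with FDR values of 0.292 to 0.438. *RPL8*, a core protein near the peptidyl transferase centre, was at 1700, 1467 and 1598 CPM in *ZK3*-WT and at 1929, 1859 and 2621 CPM in *ZK3*-KO, without overlap. *RPL9* was at 640.0, 572.4 and 632.5 CPM and at 684.9, 596.4 and 1254 CPM, and only replicate 3 stood clearly apart. Without replicate 3, *RPL8*, *RPL23A* and *RPL24* were at 0.26, 0.24 and 0.21 and *RPL9* at 0.06.

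The genes at the other end of the order were near 0 with all libraries and below 0 without replicate 3. *RPL3*, which shapes the peptidyl transferase centre, was at 2329, 2251 and 2373 CPM in *ZK3*-WT and at 1930, 1696 and 3411 CPM in *ZK3*-KO. Its replicates 1 and 2 were below all *ZK3*-WT libraries and its replicate 3 above them, so the log2 fold change was 0.02 (SE 0.27, FDR = 0.982) with replicate 3 and -0.35 (SE 0.11, FDR = 0.0688) without it. *RPS27* was at 351.6, 316.5 and 350.4 CPM and at 273.5, 246.7 and 510.2 CPM, with the same pattern (0.02, SE 0.28, and -0.38, SE 0.13, FDR = 0.0731). *RPS12*, *RPS18*, *RPL30* and *RPL10A* had fold changes of 0.03 to 0.07 on the log2 scale with all libraries and of -0.27 to -0.18 without replicate 3. *RPS20*, also among the 5 lowest of its subunit, was at 0.12 and -0.10. *RPS2* had a log2 fold change of -0.04 (SE 0.18, FDR = 0.926) and -0.17 without replicate 3. The sign of each of these genes changed under at least 1 alternative.

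**Figure D4:**
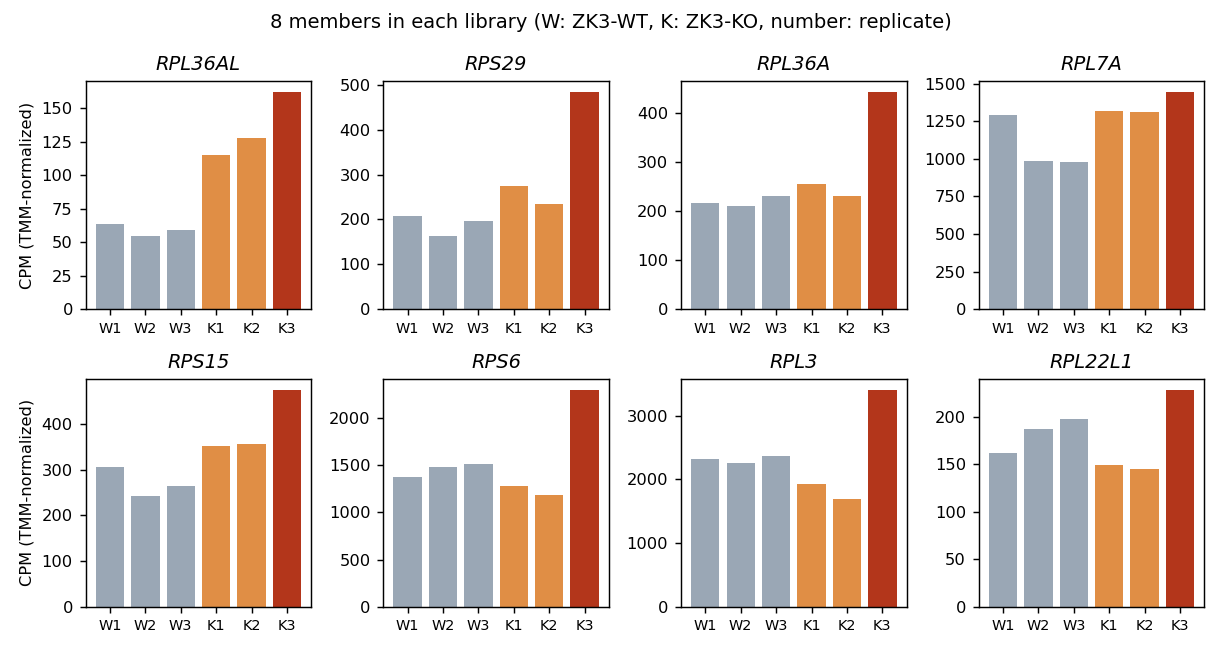
CPM of 8 members in the 3 *ZK3*-WT (W1 to W3) and 3 *ZK3*-KO libraries (K1 to K3), 1 bar per library, each panel on its own axis from 0. *RPL36AL* lies between 115.1 and 162.4 CPM in *ZK3*-KO against 54.6 to 63.4 CPM in *ZK3*-WT, whereas *RPS6* and *RPL3* are above the *ZK3*-WT libraries only in K3 and below them in K1 and K2.

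The stalk of the large subunit recruits translation factors, with *RPLP0* at its base, copies of the *RPLP1* and *RPLP2* proteins along it and the *RPL12* protein beside it. *RPLP0* was at 2800, 2558 and 2575 CPM in *ZK3*-WT and at 2428, 2201 and 3074 CPM in *ZK3*-KO (-0.04, SE 0.18, FDR = 0.931). *RPLP1* was at 1038, 938.5 and 1037 CPM and at 851.2, 827.6 and 1315 CPM (-0.01, SE 0.22, FDR = 0.988). For both, *ZK3*-KO replicates 1 and 2 were below all *ZK3*-WT libraries, and the values without replicate 3 were -0.19 and -0.25. *RPLP2* (0.31, SE 0.21) and *RPL12* (0.18, SE 0.23) were not called and stood at 0.10 and -0.07 without it. On the TPM scale *RPLP0* was at 5249, 4878 and 4851 in *ZK3*-WT and at 4559, 4126 and 4634 in *ZK3*-KO, and *RPS2* at 6140, 5510 and 5713 and at 5137, 4974 and 5233. On that scale all *ZK3*-KO libraries of both genes were below all *ZK3*-WT libraries, which was not the case in CPM.

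*RPL5* and *RPL11* carry the 5S rRNA and, when free of the ribosome, bind MDM2, the ubiquitin ligase of p53. *RPL5* was at 990.4, 907.9 and 925.1 CPM in *ZK3*-WT and at 1053, 955.7 and 1292 CPM in *ZK3*-KO, and *RPL11* at 729.8, 684.9 and 694.0 CPM and at 693.0, 639.6 and 1024 CPM. Their log2 fold changes were 0.23 (SE 0.17) and 0.16 (SE 0.21), with FDR values of 0.533 and 0.736, and 0.10 and -0.07 without *ZK3*-KO replicate 3. *RPS6*, the small-subunit protein phosphorylated by S6 kinase, was at 1373, 1476 and 1507 CPM and at 1276, 1179 and 2297 CPM (0.13, SE 0.27, FDR = 0.843, and -0.24, SE 0.12, FDR = 0.194 without replicate 3). Of 8 proteins that line the nascent chain exit tunnel or its mouth, 0 were called, with a median of 0.23 (-0.04 without replicate 3). The same count was found for 19 genes mutated in Diamond-Blackfan anaemia, an inherited red cell aplasia, with a median of 0.27 (0.04). Over all tested genes 0.817% were called higher and 1.23% lower, with a median of 0.02 (-0.02). Sets this small would thus hold few calls in any case.

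Paralogues were expressed below the genes they resemble. *RPL22L1*, which can replace the *RPL22* protein, made up 30.8%, 35.5% and 36.6% of the summed TPM of that pair in *ZK3*-WT and 29.1%, 28.6% and 31.6% in *ZK3*-KO, so that the groups overlapped. It was at 161.9, 187.4 and 198.0 CPM in *ZK3*-WT and at 148.7, 145.1 and 228.5 CPM in *ZK3*-KO (-0.07, SE 0.21, FDR = 0.899). *RPL22* had a log2 fold change of 0.22 (SE 0.18, FDR = 0.557), and without replicate 3 the values were -0.31 for *RPL22L1* and 0.06 for *RPL22*. *RPL7L1*, a factor of ribosome biogenesis related to *RPL7*, was at 203.8, 232.5 and 236.5 CPM and at 238.0, 264.6 and 249.2 CPM (0.16, SE 0.14, FDR = 0.599, and 0.17 without replicate 3). *RPL26L1* was at 19.0, 14.2 and 16.3 CPM and at 20.6, 23.9 and 20.8 CPM (0.40, SE 0.17, FDR = 0.266, and 0.44 without replicate 3), or 1.30% to 1.85% and 1.27% to 2.74% of its pair with *RPL26*. *RPL7L1* and *RPL26L1* thus had barely separated groups and did not share the high value in *ZK3*-KO replicate 3.

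*RPL3L*, a form known from striated muscle, had at most 0.29 CPM in any library. *RPL39L*, a form known from testis, had 0 reads in every library. The readthrough loci *RPL17-C18orf32*, *RPL36A-HNRNPH2* and *RPS10-NUDT3* lay between 2.27 and 39.2 CPM and share exons with the members they are named after. *RPS19BP1*, a partner of the *RPS19* protein, was at 36.0, 44.3 and 48.4 CPM and at 44.9, 64.3 and 75.1 CPM, with overlapping groups. Pseudogenes of members, by biotype and symbol, filled 1440 further rows of the table, which took 2.19 to 2.41 reads for every 100 on the members in each library.

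*RACK1* and *FAU*, outside the symbol rule, were measured in the same table. *RACK1* was at 1236, 1164 and 1229 CPM in *ZK3*-WT and at 1216, 1168 and 1949 CPM in *ZK3*-KO, with replicate 3 alone apart. *FAU* was at 209.6, 163.6 and 197.7 CPM and at 245.5, 250.7 and 321.7 CPM, without overlap. The FDR values were 0.60 for *RACK1* and 0.192 for *FAU*.

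Other genes of translation were described by lists written for this comparison. In the 6-library fit 0.817% of all tested genes were called higher and 1.23% lower, with a median log2 fold change of 0.02. Of 39 initiation factor genes 0 were called in either direction, with a median of 0.15 on the log2 scale, and of 13 tested elongation and release factor genes 0, with a median of 0.16. Of 74 ribosome biogenesis and RNA polymerase I genes 0 were called, with a median of 0.15, and of 21 genes of other TOP mRNAs 0, with a median of 0.10. None of the 8 genes of TOP regulation, which include *MTOR*, *LARP1* and *MYC*, was called either. Of the 78 mitochondrial ribosomal protein genes 1 was called higher and 0 lower, with a median of 0.29, and in 36 of them every *ZK3*-KO library was above every *ZK3*-WT library, against 12.7% of all tested genes. Without *ZK3*-KO replicate 3, where 7.41% and 7.73% of all tested genes were called higher and lower, the counts were 7 higher and 1 lower for initiation (median 0.18), 2 and 0 for elongation and release (0.08), and 8 and 0 for biogenesis (0.23). They were 1 and 1 for the other TOP mRNAs (0.08), 0 and 0 for TOP regulation (0.12), and 14 and 1 for the mitochondrial ribosomal proteins (0.33).

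These lists were not all highest in the same library. Relative to the *ZK3*-WT mean, the median biogenesis gene lay at -0.21, 0.07 and 0.13 in *ZK3*-WT replicates 1, 2 and 3. The median mitochondrial ribosomal protein gene lay at 0.02, -0.06 and 0.04 there. In *ZK3*-KO replicates 1, 2 and 3 the median biogenesis gene lay at 0.02, 0.40 and 0.05. The median mitochondrial ribosomal protein gene lay at 0.20, 0.44 and 0.25 in these, so that replicate 2 was highest for both lists. The other TOP mRNAs lay at 0.06, 0.02 and 0.34, and the elongation and release factors at 0.06, 0.08 and 0.31, with replicate 3 highest. Elongation factor genes such as *EEF1G* are in both of these lists, so their medians are not independent. The initiation factors lay at 0.15, 0.23 and 0.26, so that replicates 2 and 3 were close. *EEF1A1*, the most abundant TOP mRNA of that list, was at 11822, 12380 and 12412 CPM in *ZK3*-WT and at 10544, 9296 and 16250 CPM in *ZK3*-KO, and *TPT1* was at 1785, 1978 and 1980 CPM and at 1588, 1432 and 3027 CPM. *GAS5*, a TOP RNA without a protein product, varied most, with 161.4, 263.9 and 331.4 CPM and 128.7, 104.1 and 491.2 CPM. Of the 21 tested other TOP mRNAs, 14 had their highest value in replicate 3, against 28.8% of all tested genes. *EIF4B*, *NPM1* and *EIF3E* were among those that did not.

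Genes of other kinds also stood higher in *ZK3*-KO replicate 3. The 6 tested epithelial markers lay at -0.20, -0.20 and 0.61 in *ZK3*-KO replicates 1, 2 and 3, and all 6 were highest in replicate 3, with a median ratio of 1.95 to the mean of replicates 1 and 2. *KRT18*, an epithelial keratin, was at 563.0, 881.8 and 951.5 CPM in *ZK3*-WT and at 593.1, 644.6 and 1449 CPM in *ZK3*-KO. *CDH1*, which encodes E-cadherin and has a canonical transcript of 4811 bases, was at 132.9, 166.0 and 139.6 CPM and at 115.2, 85.3 and 217.8 CPM. *COL1A1*, a collagen gene with 5914 bases, was 2.47-fold higher in replicate 3 than the mean of replicates 1 and 2. The part of what these genes share with the ribosomal protein genes was not tested. The 45 other genes with at least 200 CPM in *ZK3*-WT and a transcript no longer than the upper quartile of the subunit genes (1330 bases) had medians of 0.08, close to 0 and 0.35 in *ZK3*-KO replicates 1, 2 and 3. In the 6-library fit the median log2 fold change of these 45 genes was 0.21 (0.07 without replicate 3), against 0.24 (-0.04) for the members. The 654 other genes with at least 200 CPM had a fitted median of 0.09 (0.06). The 1283 other protein-coding genes with a length between the quartiles of the subunit genes (566 and 1330 bases) lay at 0.06, 0.04 and 0.33. The fitted median of these 1283 genes was 0.17 (0.04 without replicate 3). The parts of length and abundance in the shift of the ribosomal protein genes were not tested. With offsets for length in the 6-library edgeR fit, the median log2 fold change was 0.25 for the members and 0.06 for all tested genes.

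**Figure D5:**
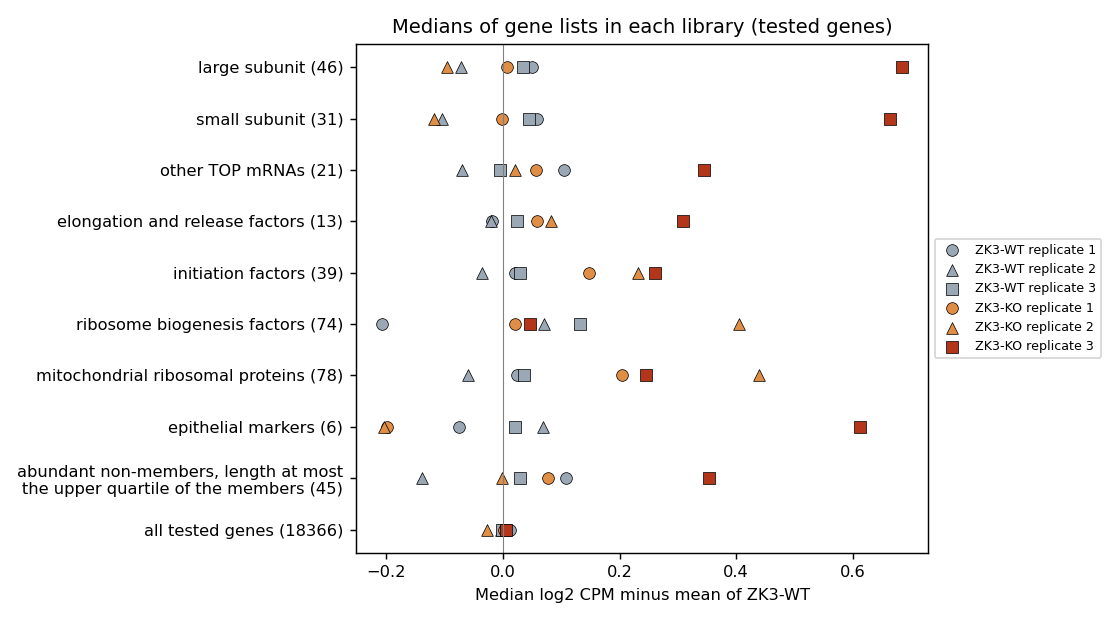
Median log2 CPM minus the *ZK3*-WT mean of each gene list in each library, with the number of tested genes in brackets. The lists of other TOP mRNAs and of elongation and release factors share genes. *ZK3*-KO replicate 3 (dark square) lies at 0.68 and 0.66 for the subunits and at 0.31 to 0.35 for other TOP mRNAs, elongation and release factors and abundant short genes, and at 0.61 for the epithelial markers, whereas biogenesis factors and mitochondrial ribosomal proteins are highest in *ZK3*-KO replicate 2.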

How the data were processed

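Libraries of 3 *ZK3*-WT and 3 *ZK3*-KO cultures were prepared with a stranded mRNA kit and sequenced as paired ends. The table that the authors deposited gives, for every gene and library, an unnormalized read count. Beside it stand FPKM values, scaled by the authors to length and depth and not used here, and TPM values, which the authors scaled by length to nearly the same sum and which were used for levels between genes. The submitters' processing notes name Bowtie2 2.2.5 and hg19, and the methods describe quantification in Partek Flow; the strand setting and the treatment of reads with several matches are not given in the sources used here. The table lists NCBI Gene identifiers, whereas the methods name an Ensembl annotation.

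The members and lists were chosen with earlier results of these data known. All genes were fitted together with edgeR 4.0.16 in R 4.3.3 (filterByExpr, TMM, quasi-likelihood test, genotype only). Benjamini-Hochberg adjustment ran over the 18366 tested genes, and the threshold was 0.05. No p was computed for the members as a group. Named were members past the threshold, the 5 highest and lowest fold changes and the 3 highest and lowest TPM of each subunit, the stalk, 5S RNP, paralogue, readthrough and chromosome 14 members and *RPS6*. *RPL7A*, *RPL13* and genes of the other lists, markers included, were named after their values were seen. Alternatives were DESeq2 1.42.0, limma 3.58.1 on log2(TPM + 1), other scalings and filters, offsets for length, the replicate number as a block, pseudogene reads added to members and each library left out; values of lists and group overlaps without *ZK3*-KO replicate 3 were added after seeing the data. Scripts were tested on simulated data.

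Deviations from the mean of each genotype were positively correlated across genes for libraries with the same number (0.294, 0.112 and 0.449). The number was therefore used as a block in an alternative. Other pairs had -0.343 to 0.209. *ZK3*-KO replicate 2 correlated more with *ZK3*-WT replicate 1 (0.209) than with *ZK3*-WT replicate 2 (0.112). The main fit used genotype only. The replicate block called 1 member higher and 0 lower, with a median of 0.20. Positions on GRCh37 and transcript lengths came from GENCODE, with a length for 85.5% of tested genes and every member. Intervals and limits at a count of 0 (3 reads) cover counting error only.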

Additional observations from a re-analysis of the deposited data

How the results depend on the processing

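The member count called lower stayed at 0 in all 17 alternatives, and that called higher at 1 except in the leave-outs, where it ran from 0 to 1. The median log2 fold change of the members was 0.14 with library totals (-0.07 over all genes), 0.08 on log2(TPM + 1) (-0.08 over all genes, a shift of all genes), 0.20 with the replicate block and -0.04 to 0.37 in the leave-outs, and the members above 0 numbered 70, 57 and 79 in the first 3 of these. The difference in the share of reads (*ZK3*-KO minus *ZK3*-WT) was 0.490 percentage points and -0.367 to 1.04 in the leave-outs, lowest without *ZK3*-KO replicate 3. DESeq2 called 1506 genes in all against 376 by edgeR. The block changed no call among the members.

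Genes close to 0 changed sign without being called. With library totals *RPL3*, *RPL10A*, *RPL30*, *RPS27*, *RPS12* and *RPS18* were at -0.085, -0.061, -0.038, -0.088, -0.054 and -0.035. On log2(TPM + 1) *RPL3*, *RPL10A*, *RPL30*, *RPS27*, *RPS12*, *RPS18*, *RPS20* and *RPS6* were at -0.18, -0.11, -0.11, -0.18, -0.13, -0.12, -0.027 and -0.065. With length offsets *RPL3* and *RPS27* were at -0.0071 and -0.027, and *RPS27* was at -0.00064 with upper-quartile factors. With the replicate block *RPL3*, *RPS27* and *RPS12* were at -0.054, -0.062 and -0.0056, and with block and offsets at -0.045, -0.076 and -0.011. With 1 library left out, *RPLP0* ran from -0.19 to 0.057, *RPLP1* from -0.25 to 0.11, *RPL3* from -0.35 to 0.20, *RPL10A* from -0.18 to 0.15, *RPL30* from -0.22 to 0.21, *RPS2* from -0.17 to 0.028, *RPS27* from -0.38 to 0.21, *RPS12* from -0.27 to 0.20, *RPS18* from -0.27 to 0.23, *RPS20* from -0.099 to 0.26, *RPL12* from -0.070 to 0.34, *RPL11* from -0.072 to 0.29, *RPS6* from -0.24 to 0.30 and *RPL22L1* from -0.31 to 0.048. The cause was not tested.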
